A study of Rattus norvegicus with 59 samples.

Results

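The circadian clock genes described here are 8 of the 22938 genes with read counts in heart muscle cell nuclei of rats, chosen by their gene IDs: Arntl (ENSRNOG00000014448), Clock (ENSRNOG00000002175), Per1 (ENSRNOG00000007387), Per2 (ENSRNOG00000020254), Per3 (ENSRNOG00000018413), Cry1 (ENSRNOG00000006622), Nr1d1 (ENSRNOG00000009329) and Dbp (ENSRNOG00000021027). All 8 IDs were in both count tables and in the authors' table that compares sorted nuclear fractions. The gene names come from the list that defines the set, because the count tables hold IDs only.

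The study measured RNA and 2 histone marks in left ventricle nuclei of male Sprague Dawley rats, sorted for PCM1, a centriolar satellite protein that labels the nuclei of cardiomyocytes. Of its 59 samples, 16 RNA libraries had counts of their own. Banded rats of about 170 g had a suture tightened around the ascending aorta for 6 weeks, under isoflurane with buprenorphine for pain, and only hearts that were enlarged but not failing were kept. Sham rats of about 170 g had the same operation with the suture left loose. Trained rats of about 280 g ran treadmill intervals for 6 weeks, and their controls, also of about 280 g, were left untrained. Each group had 4 libraries. The counts of sham replicates 2 and 3 were close to sampling noise apart (a chi-square per degree of freedom of 1.27, against 6.05 to 84.8 in the other 23 pairs of replicates), so they were summed and taken as 1 sample, which leaves 15 samples. Library totals were 2.58 to 14.4 M counts in banded, 3.18 to 14.1 in sham, 2.14 to 7.60 in trained and 1.82 to 7.80 in control rats. The labels used here give no time of day at which hearts were collected, and do not say in words that replicates are separate animals, so p-values reflect only how far these samples spread, part of which may be technical.

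The clock of mammalian cells is a feedback loop of transcription. The proteins made from Arntl (also called Bmal1) and Clock bind DNA as a pair at E-box sequences and switch on the Per and Cry genes, Nr1d1 and Dbp. The PER and CRY proteins return to block that pair, and the nuclear receptor REV-ERB alpha, the product of Nr1d1, represses Arntl through ROR elements, so that in tissues such as the heart Arntl RNA peaks at another time of day than the RNA of Per3, Nr1d1 or Dbp. Dbp encodes a transcription factor that binds D-box sequences and carries the rhythm to output genes.

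The DNA in front of some of these genes shows the letters that such factors read. The RefSeq table of promoters, build GRCr8, held 9 windows of 250 bases before to 50 bases after a start for 7 of the 8 genes. Windows are printed for Arntl, for Per3, whose RNA ran most opposite to it, and for Per2 and Nr1d1, where motifs were found, 5′ to 3′ on the gene's strand, with each motif in capitals.
Arntl, chr1:176766078-176766377, plus strand: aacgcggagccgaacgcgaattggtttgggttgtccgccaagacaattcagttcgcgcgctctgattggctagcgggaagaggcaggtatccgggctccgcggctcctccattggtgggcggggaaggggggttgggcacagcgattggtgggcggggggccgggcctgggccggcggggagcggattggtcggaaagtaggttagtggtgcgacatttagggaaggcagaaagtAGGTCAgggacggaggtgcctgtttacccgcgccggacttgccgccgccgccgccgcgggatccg
Per3, chr5:166777751-166778050, minus strand: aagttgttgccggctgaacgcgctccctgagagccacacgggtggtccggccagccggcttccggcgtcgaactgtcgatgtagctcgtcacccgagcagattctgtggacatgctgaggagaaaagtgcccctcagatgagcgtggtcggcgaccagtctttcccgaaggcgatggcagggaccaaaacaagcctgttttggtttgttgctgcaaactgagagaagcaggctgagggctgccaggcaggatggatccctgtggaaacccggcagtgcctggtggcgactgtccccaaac
Per2, chr9:99496944-99497243, minus strand: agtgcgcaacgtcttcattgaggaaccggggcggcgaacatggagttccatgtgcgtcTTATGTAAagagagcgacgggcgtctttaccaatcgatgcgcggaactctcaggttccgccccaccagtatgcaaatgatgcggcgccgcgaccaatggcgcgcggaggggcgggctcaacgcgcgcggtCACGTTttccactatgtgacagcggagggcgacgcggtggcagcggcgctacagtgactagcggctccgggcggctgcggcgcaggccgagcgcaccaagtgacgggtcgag
Nr1d1, first start, chr10:84231763-84232062, minus strand: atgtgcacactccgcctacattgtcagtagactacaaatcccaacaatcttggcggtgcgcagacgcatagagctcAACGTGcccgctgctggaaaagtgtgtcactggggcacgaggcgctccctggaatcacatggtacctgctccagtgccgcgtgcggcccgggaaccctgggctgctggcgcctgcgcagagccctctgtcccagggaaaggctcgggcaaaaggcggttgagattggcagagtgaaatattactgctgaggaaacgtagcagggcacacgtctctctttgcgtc
Nr1d1, second start, chr10:84229405-84229704, minus strand: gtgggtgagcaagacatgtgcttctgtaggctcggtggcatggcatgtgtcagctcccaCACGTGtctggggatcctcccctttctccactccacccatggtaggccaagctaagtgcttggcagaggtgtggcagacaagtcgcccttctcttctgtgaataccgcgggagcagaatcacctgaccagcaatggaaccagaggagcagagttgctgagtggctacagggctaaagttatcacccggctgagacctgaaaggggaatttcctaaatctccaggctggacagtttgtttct
The capitals mark AGGTCA, the core of ROR and REV-ERB sites, in the Arntl window, where it begins at position -15 from the start. They mark CACGTT, a variant E-box, at -62 and TTATGTAA, a D-box, at -192 in the Per2 window. In the Nr1d1 windows they mark CACGTT on the opposite strand at -174 of the first start, and the E-box CACGTG at -191 of the second. Both strands were searched for these and for the D-box form TTACGTAA and the cyclic AMP element TGACGTCA, and none of the 6 motifs was in the windows of Per3, Clock, Per1 or Dbp. Of all 33469 windows of the same length in the table, 16.2% held AGGTCA, 6.42% CACGTG, 4.83% CACGTT, 1.83% TGACGTCA, 0.893% TTATGTAA and 0.120% TTACGTAA, so a match in 1 window is common for AGGTCA and uncommon for the D-box forms. A match describes the letters and is not a measured binding site.

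Arntl, the activator, had the widest range of the set. Its level was 11.1, 7.02, 13.2 and 7.89 CPM (counts scaled to the library total) in banded replicates 1 to 4, against 12.0 CPM in sham 1, 4.26 CPM in sham 2 and 3 summed and 103.9 CPM in sham 4. It was 11.0, 10.8, 45.7 and 16.6 CPM in trained replicates 1 to 4, against 22.8, 14.8, 4.81 and 14.7 CPM in control replicates 1 to 4. Sham 4 stood above all others, trained 3 and control 1 came next, and the groups overlapped. These values rest on 16 to 1321 counts per library, and the 95% Poisson interval, which covers counting error only, was 98.4 to 109.7 CPM in sham 4 and 3.14 to 5.65 CPM in the summed sham sample. The highest sample was 24.4 times the lowest. Of 7832 genes with a mean of at least 10 CPM, 99.3% had a smaller ratio of highest to lowest sample, and the median ratio of these genes was 1.94.

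Clock, which encodes the DNA-binding partner of the Arntl product, followed Arntl over a narrower range. Its level was 31.2, 24.7, 25.2 and 24.0 CPM in banded replicates 1 to 4, against 27.6, 20.2 and 50.7 CPM in sham 1, sham 2 and 3, and sham 4. In trained replicates 1 to 4 it was 26.9, 35.1, 45.2 and 30.7 CPM, against 37.4, 31.8, 21.9 and 28.9 CPM in control replicates 1 to 4. The 3 highest samples were again sham 4, trained 3 and control 1, in the same order as for Arntl, and the ratio of highest to lowest was 2.50.

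Per3, a period gene of the repressor arm, varied in the opposite direction. It had 474, 438, 412 and 443 CPM in banded replicates 1 to 4, against 506, 563 and 183 CPM in sham 1, sham 2 and 3, and sham 4. It had 435, 420.3, 262 and 378 CPM in trained replicates 1 to 4, against 328, 449, 486 and 411 CPM in control replicates 1 to 4. Its 3 lowest samples, sham 4, trained 3 and control 1, were the 3 highest for Arntl, and its highest, the summed sham sample, was the lowest for Arntl.

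Per2, another period gene, gave 418, 301, 222 and 244 CPM in banded replicates 1 to 4, against 387, 311 and 119.9 CPM in sham 1, sham 2 and 3, and sham 4. It gave 351, 244, 161 and 248 CPM in trained replicates 1 to 4, against 177, 200.3, 211 and 177 CPM in control replicates 1 to 4. Sham 4 and trained 3 were the lowest of the 15 samples, while the 4 control samples lay close together. Per1, whose product also acts in the repressor complex and whose gene responds to many acute signals, ranged between 110.0 CPM in trained 2 and 373 CPM in control 3, and its extremes were not those of Arntl. Cry1, which encodes the cryptochrome repressor of the Arntl and Clock pair, lay between 14.1 CPM in sham 4 and 42.5 CPM in banded 2.

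Dbp, the output factor, had 172, 176, 397 and 191 CPM in banded replicates 1 to 4, against 259, 230.2 and 106 CPM in sham 1, sham 2 and 3, and sham 4. In trained replicates 1 to 4 it had 207, 159.6, 60.0 and 153 CPM, against 58.8, 158, 225 and 125 CPM in control replicates 1 to 4. Control 1, trained 3 and sham 4, the samples highest in Arntl, were the 3 lowest in Dbp, and banded 3 stood above the rest. The ratio of Dbp to Arntl, taken from log2 CPM with a prior count of 2, is not corrected for gene length and is compared between samples only. It was 1.02 in sham 4, 1.31 in trained 3 and 2.56 in control 1, and between 8.36 and 51.0 in the other 12 samples.

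Nr1d1, the gene of REV-ERB alpha, had 98.5, 43.5, 148 and 90.8 CPM in banded replicates 1 to 4, against 145, 67.4 and 139 CPM in sham 1, sham 2 and 3, and sham 4. It had 86.1, 74.0, 20.9 and 56.5 CPM in trained replicates 1 to 4, against 29.9, 57.1, 53.5 and 46.4 CPM in control replicates 1 to 4. Trained 3 and control 1 were the lowest samples, as for Dbp, but sham 4, where Arntl was highest, was the third highest of 15. The gene overlaps Thra, the thyroid hormone receptor alpha gene, in the RefSeq annotation of GRCr8, and no source used here says whether counting used strand, so reads of both genes may not be told apart. The same limit holds for Cry1, which overlaps a protein-coding gene there, for Clock, which overlaps 2 long non-coding RNAs, and for Per2, which overlaps 1.

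**Figure D1:**
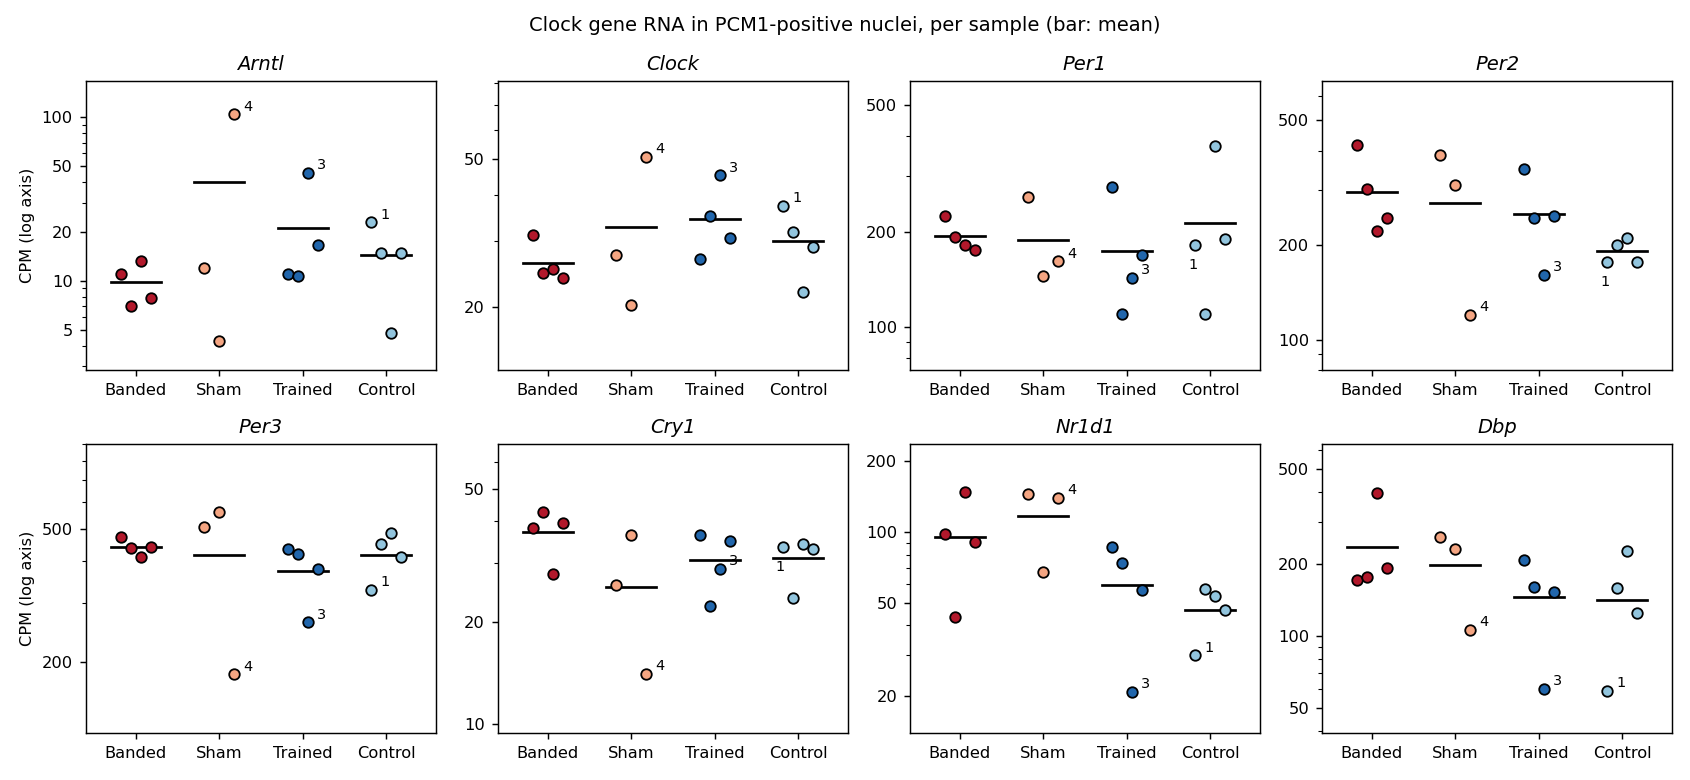
CPM (log axis) of each clock gene per sample, with sham 2 and 3 as 1 point and a bar at each group's mean; the points numbered 4, 3 and 1 are sham 4, trained 3 and control 1. These samples are the 3 highest for Arntl and Clock and the 3 lowest for Per3 and Dbp, and the points of banded and sham and of trained and control overlap for every gene.

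The list that defines the set names an opposite course of Arntl against Dbp and Nr1d1 across libraries, so these relations were computed first and are not independent support for it. Pearson's r over the 15 samples was -0.66 between Arntl and Dbp on log2 CPM (permutation p = 0.00899, or 0.0141 after Benjamini-Hochberg adjustment over the 7 relations of Arntl; Spearman's rho = -0.72, permutation p = 0.0037). Between Arntl and Nr1d1 it was -0.084 (permutation p = 0.766; rho = -0.096, permutation p = 0.733). Dbp and Arntl thus ran opposite over all samples, while no relation of Nr1d1 with Arntl passed the test there.

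The 2 experiments gave different values for Nr1d1. Within the 8 exercise samples r between Arntl and Nr1d1 was -0.75 (exact permutation p = 0.0337, adjusted 0.059; rho = -0.60, exact permutation p = 0.132). Within the 7 surgery samples it was 0.61 (exact permutation p = 0.137; rho = 0.89, exact permutation p = 0.0123, adjusted 0.0833). The difference between these was not tested. Single samples moved the pooled value, which was -0.52 without sham 4 and 0.22 without trained 3. For Dbp, r was -0.87 within the exercise samples (exact permutation p = 0.00154, adjusted 0.00538; rho = -0.88, adjusted exact permutation p = 0.0507) and -0.56 within the surgery samples (exact permutation p = 0.24; rho = -0.21). Leaving out sham 4 and trained 3, the samples farthest from the median of Arntl, r over 13 samples was -0.56 for Dbp (permutation p = 0.0487, adjusted 0.114) and -0.21 for Nr1d1 (permutation p = 0.486).

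The closest relations were with Per3 and Clock. Arntl had r = -0.96 with Per3 (permutation p = 1e-05, the smallest that the resampling can give, adjusted 7e-05; rho = -0.80, permutation p = 0.00047) and r = 0.92 with Clock (permutation p = 2e-05, adjusted 7e-05; rho = 0.88, permutation p = 6e-05). On Pearson's r both also passed the test within each experiment, while 0 of their 4 rank correlations there passed it after adjustment. For Per3, r was -0.99 in the surgery samples (exact permutation p = 0.00437, adjusted 0.0259; rho = -0.79, exact permutation p = 0.048, adjusted 0.112) and -0.95 in the exercise samples (exact permutation p = 0.000496, adjusted 0.00347; rho = -0.83, exact permutation p = 0.0154, adjusted 0.0538). For Clock, r was 0.97 in the surgery samples (exact permutation p = 0.0111, adjusted 0.0259; rho = 0.57, exact permutation p = 0.2, adjusted 0.35) and 0.89 in the exercise samples (exact permutation p = 0.00625, adjusted 0.0146; rho = 0.74, exact permutation p = 0.0458, adjusted 0.107). Without sham 4 and trained 3, r stayed at -0.87 for Per3 (permutation p = 0.00013) and 0.81 for Clock (permutation p = 0.00088).

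Deviations from group means, which remove any difference between the 4 groups, kept both relations. On these deviations r with Arntl was -0.98 for Per3 (permutation p within groups = 1e-04) and 0.94 for Clock (permutation p = 0.00201). It was -0.83 for Per2 (permutation p = 0.00822) and -0.68 for Dbp (permutation p = 0.00902), while that of Cry1, -0.69, did not pass the test (permutation p = 0.0745). Pooled over the 4 groups, samples of 1 group thus differed along this axis, with Arntl and Clock on one side and Per3, Per2 and Dbp on the other. The deviations were not computed again without sham 4 and trained 3, and the axis did not hold for every gene in each group. Banded 3 was the highest banded sample in Arntl (13.2 CPM) and the lowest in Per3 (412 CPM) and Per2 (222 CPM), but also the highest in Dbp (397 CPM).

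Per2 and Cry1 rested on few samples. Over the 15 samples r with Arntl was -0.74 for Per2 (permutation p = 0.0014, adjusted 0.00327; rho = -0.67, permutation p = 0.00824) and -0.67 for Cry1 (permutation p = 0.01, adjusted 0.0141; rho = -0.51, permutation p = 0.0532). Without sham 4 and trained 3 these were -0.43 (permutation p = 0.141) and -0.36 (permutation p = 0.231), so both relations no longer passed the test. The relation of Dbp with Arntl passed it there only before adjustment (permutation p = 0.0487, adjusted 0.114). Per1 had r = -0.32 (permutation p = 0.248; rho = -0.32, permutation p = 0.242) over the 15 samples.

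**Figure D2:**
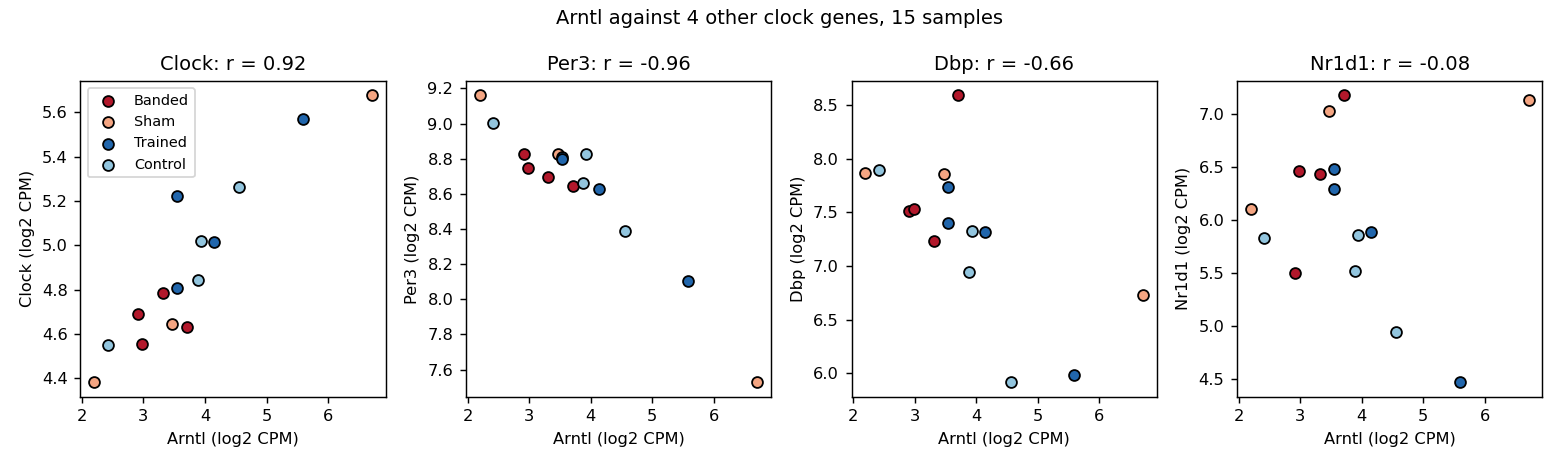
Log2 CPM of Clock, Per3, Dbp and Nr1d1 (vertical axes) against Arntl (horizontal axes) in 15 samples coloured by group. Clock is higher (r = 0.92) and Per3 lower (r = -0.96) where Arntl is high, and Dbp is lower with more scatter (r = -0.66), while sham 4 stands apart at the upper right for Nr1d1 (r = -0.084).

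Among the 12359 other genes with a mean of at least 1 CPM, as a description of these samples, Clock had the highest r with Arntl and Per3 the lowest. Per2 ranked 17th from the lowest, Cry1 43rd, Dbp 47th, Per1 1236th and Nr1d1 4506th. Without sham 4 and trained 3, Clock ranked 11th from the highest and Per3 6th from the lowest. Dbp then ranked 560th from the lowest, Per2 1308th, Cry1 1923rd, Per1 2604th and Nr1d1 3568th, so several of these ranks rested on few samples. Over the 15 samples, an absolute r of 0.6 or more was found for 149 of the 12359 genes (1.21%), and of 0.9 or more for 3. These were Clock, Per3 and ENSRNOG00000019383 with r = -0.93, a gene the files give no name for. ENSRNOG00000019383 had 113.8 CPM in sham 4 and 178.4 in trained 3, its 2 lowest samples. The second highest r with Arntl belonged to ENSRNOG00000010124 (r = 0.83). The genes most like Dbp were ENSRNOG00000042717 (r = 0.90) and ENSRNOG00000011254 (r = 0.86), and those most opposite were ENSRNOG00000012237 (r = -0.87) and ENSRNOG00000001982 (r = -0.87). Nr1d1 had r = 0.68 with Dbp.

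**Figure D3:**
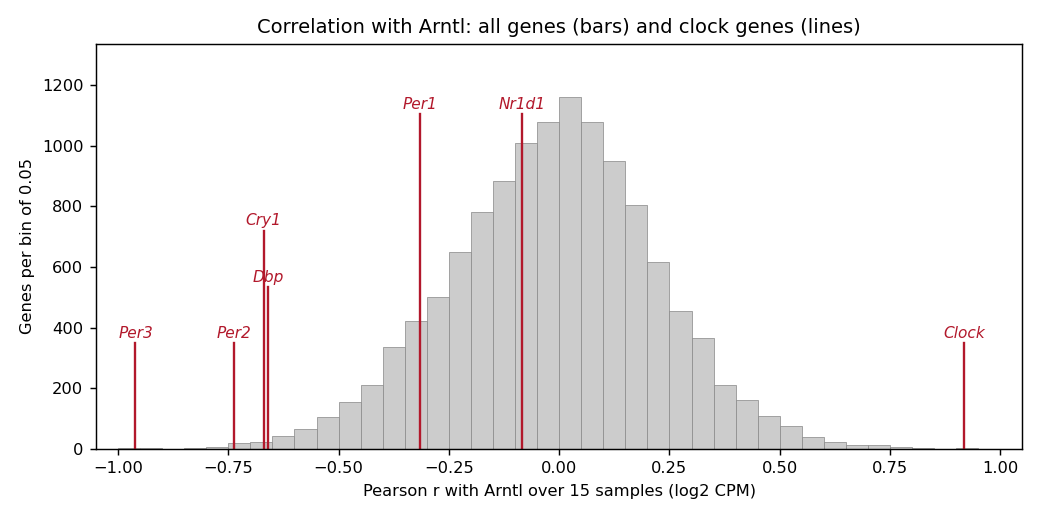
Number of genes per bin of Pearson's r with Arntl over 15 samples (grey bars) and the r of the 7 other clock genes (red lines, whose heights carry no value). Per3 and Clock lie at the 2 ends of the distribution, Per2, Cry1 and Dbp in the lower tail, and Per1 and Nr1d1 within the bulk.

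The spread between replicates of 1 group was large for Arntl. Its biological coefficient of variation, the spread that edgeR estimates beyond counting error, was 69.8% in a fit of the 4 groups, and 99.5% of the 12650 genes tested had a lower one. The median of all genes was 22.0%. Dbp had 41.6%, Nr1d1 38.4%, Per1 31.5%, Per2 28.5%, Per3 26.1%, Clock 25.6% and Cry1 24.9%, so all 8 genes lay above the median. Among the 500 genes closest to each in level, between 83.0% and 99.4% had a lower coefficient. The fit holds sham 4, at 103.9 CPM of Arntl, and no coefficient without it is given. The SD of Arntl was 2.86 CPM on a mean of 9.79 CPM in banded and 55.4 CPM on 40.1 CPM in sham rats. It was 16.7 CPM on 21.0 CPM in trained and 7.37 CPM on 14.3 CPM in control rats.

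**Figure D4:**
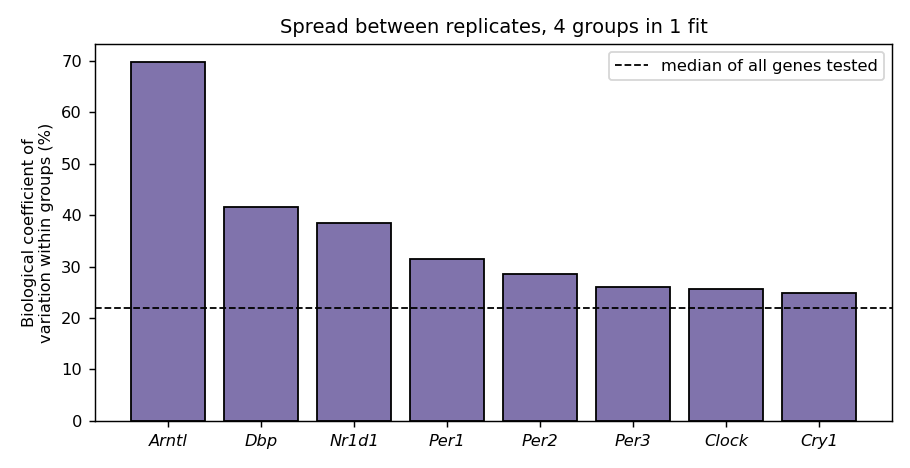
Biological coefficient of variation (%) of each clock gene within the 4 groups in 1 fit, with the median of all genes tested as a dashed line. Arntl stands at 69.8%, against 22.0% for the median gene, and the other 7 genes lie between 24.9% and 41.6%.

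No clock gene passed the test in any comparison of groups. In banded against sham rats, edgeR's quasi-likelihood test with Benjamini-Hochberg adjustment called 0 of the 8 genes, and 0.00788% of the 12689 genes tested (1 gene, and 2 with DESeq2). An unadjusted p under 0.05 was found for 1 of the 8 genes (Arntl) and for 1.84% of all. In trained against control rats it called 0 of the 8 genes and 0% of 10815 genes (37 with DESeq2 and 0 with limma voom). An unadjusted p under 0.05 was found for 1 of the 8 genes (Per2) and for 7.04% of all, or 761 genes. All 8 genes were tested in each comparison. The median absolute log2 fold change of the 8 genes was 0.29 in banded against sham and 0.26 in trained against control rats, beside 0.14 over all genes tested in each. All 8 genes also spread more between replicates than the median gene, and the part of that spread in these values was not tested. For 0 of the 8 genes did the samples of banded and sham rats, or of trained and control rats, stand apart without overlap, as they did for 3.2% and 4.15% of all genes tested.

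Arntl averaged 9.79 ± 2.86 CPM in banded rats (SD, n = 4) and 40.1 ± 55.4 CPM in sham rats (SD, n = 3). Its log2 fold change was -2.14 ± 0.92 (SE; 95% interval -4.25 to -0.03; edgeR adjusted p = 1.00, unadjusted 0.0476), and it turned to 0.30 without sham 4. With limma voom it was -1.01 (adjusted p = 1.00). In trained rats it averaged 21.0 ± 16.7 CPM (SD, n = 4), against a mean of 14.3 ± 7.37 CPM in control rats (SD, n = 4). The log2 fold change there was 0.65 ± 0.49 (SE; edgeR adjusted p = 0.831), and -0.10 without trained 3. One library thus set the sign of Arntl in each experiment. The effect of banding minus that of training was a log2 difference of -2.77 ± 1.12 (SE) with an edgeR adjusted p of 1.00, and -0.37 without sham 4. That test called 0 of the 8 genes and 0.00791% of 12650 genes, and 1 of the 8 (Arntl) and 3.86% of all had an unadjusted p under 0.05.

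Per2 averaged 251 ± 77.6 CPM in trained rats (SD, n = 4), against a mean of 191 ± 17.1 CPM in control rats (SD, n = 4). Its log2 fold change of 0.43 ± 0.19 (SE) had an unadjusted p of 0.0489 and an edgeR adjusted p of 0.707. With 1 replicate left out in turn it lay between 0.22 (without trained 1) and 0.60 (without trained 3). Dbp averaged 234 ± 109 CPM in banded rats (SD, n = 4) and 198 ± 81.3 CPM in sham rats (SD, n = 3), with a log2 fold change of 0.26 ± 0.39 (SE; edgeR adjusted p = 1.00). This turned to -0.13 without banded 3 and -0.023 without sham 4, so single libraries set its sign too. It averaged 145 ± 61.5 CPM in trained rats (SD, n = 4), against a mean of 142 ± 69.2 CPM in control rats (SD, n = 4), with a log2 fold change of 0.06 ± 0.40 (SE; edgeR adjusted p = 0.991), and between -0.21 and 0.42 when 1 replicate was left out in turn. The 95% interval of the log2 fold change in trained against control rats ran from -0.80 to 0.92 for Dbp and from -0.36 to 0.37 for Cry1, so these samples do not exclude changes inside these bounds.

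**Figure D5:**
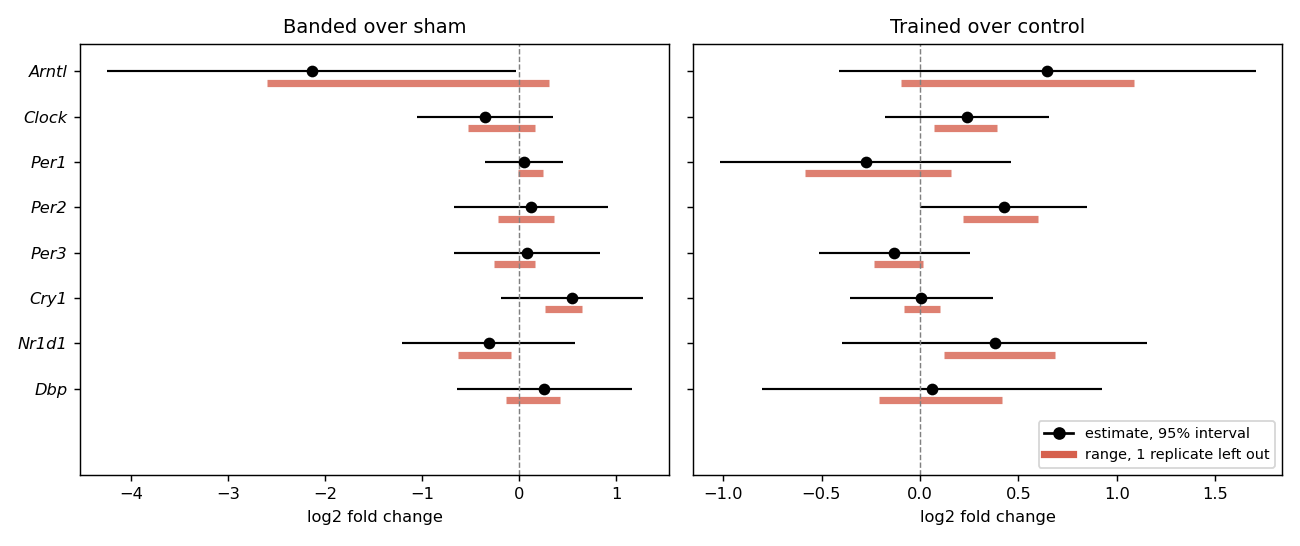
Log2 fold change of each clock gene in banded over sham (left) and trained over control rats (right), with the 95% interval (black line) and the range when 1 replicate is left out in turn (red bar). The interval of Arntl in banded over sham rats runs from -4.25 to -0.03, but the red bar reaches 0.30, and of the other intervals only that of Per2 in trained over control rats leaves out 0.

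The 2 experiments also differ in their reference rats. In sham against control rats, which differ in start weight, surgery and experiment at once so that these cannot be told apart, the edgeR test called 0 of the 8 genes and 0.941% of 12650 genes, and 1 of the 8 (Nr1d1) and 16.9% of all had an unadjusted p under 0.05. Nr1d1 was the one clock gene whose samples did not overlap there, with 117 ± 43.3 CPM in sham (SD, n = 3) and 46.7 ± 12.1 CPM in control rats (SD, n = 4), as did the samples of 13.3% of all genes tested. Its log2 fold change was 1.26 ± 0.42 (SE; edgeR adjusted p = 0.163). Ranking the 4 groups by mean level for each gene, 0 of the 24 pairs of neighbours differed by more than the larger of their SDs.

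The authors deposited their own group values and false discovery rates (FDR). In the authors' deposited table for surgery, Per3 had a log2 level of 8.78 in banded and 9.06 in sham rats with an FDR of 0.00979, and Nr1d1 had 6.56 in banded and 6.71 in sham rats with an FDR of 0.000614. The other 6 clock genes had an FDR over 0.05 there, and 2.63% of all genes were below it. With sham 2 and 3 summed, the edgeR test used here passed neither Per3 nor Nr1d1 in banded against sham rats. Its log2 fold change for Per3 was 0.087 ± 0.33 (SE; edgeR unadjusted p = 0.798), and -0.26 without sham 4. For Nr1d1 it was -0.31 ± 0.39 (SE; edgeR unadjusted p = 0.442). With sham 2 and 3 kept apart, neither gene passed the edgeR test either. The log2 fold changes were then -0.045 for Per3 (edgeR unadjusted p = 0.885) and -0.15 for Nr1d1 (edgeR unadjusted p = 0.699). In the authors' deposited table for exercise, 0 of the 8 genes and 1.27% of all genes had an FDR under 0.05, and Per2 had the lowest of the 8 with 0.117. The group columns of the authors' deposited tables equal the log2 of the median CPM of a group's 4 libraries. This held within 0.01 for 100% of genes in each of the 4 groups. Sham 2 and 3 thus enter there as separate libraries, and a group's highest and lowest libraries have little weight. Sham 4 was the highest sham library for Arntl and the lowest for Per3. For Nr1d1, sham 4 (139 CPM) and sham 3 (69.6 CPM) were the middle values. No source used here names the test behind these rates.

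Between the sorted fractions 1 of the 8 genes passed an FDR of 0.05. In the authors' deposited table of PCM1 fractions, Nr1d1 had a log2 fold change of 2.20 (4.59-fold) with an FDR of 7.28e-09, read here as higher in PCM1-negative than in PCM1-positive nuclei. The sign was read from the 1319 genes with a log2 fold change above 3, whose median level in the PCM1-positive libraries was -2.23 log2 units relative to the table's mean level. Dbp had 0.83 (FDR 0.0569), and the other 6 genes lay between -0.27 and 0.65 with FDRs of 0.216 to 0.982 in the authors' deposited table, where 51.6% of 12848 genes had an FDR under 0.05, with 27.6% of the 12848 in the direction of Nr1d1. In bulk samples such as these, fewer cells of a type and less RNA per cell cannot be told apart.

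The same 1319 genes, with a log2 fold change above 3 in the authors' deposited table, took 4.45% of counts in banded 1 and 4.32% in sham 1, against 0.536% to 1.68% in the other 14 libraries. The 604 genes with a log2 fold change below -3 took 23.5% in banded 1 and 24.6% in sham 1, against 28.9% to 32.6% in the other 14 libraries. The table's header does not name the direction, and its label, PCM1-positive against PCM1-negative, taken in that order would give the opposite sign. The first share thus counts nuclei of other cells only under the reading given above. Banded 1 had 98.5 CPM of Nr1d1 and sham 1 had 145 CPM, and the share's part in its level was not tested. Sham 4, trained 3 and control 1, the samples highest in Arntl, had shares of 1.58%, 0.614% and 0.956%, within the range of the other libraries. Without banded 1 and sham 1, r with Arntl over the 13 remaining samples was -0.67 for Dbp (permutation p = 0.0135) and -0.042 for Nr1d1 (permutation p = 0.892).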

How the data were processed

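RNA of PCM1-positive nuclei was analysed in 16 libraries of 4 groups. The count tables the authors deposited hold raw reads per gene in whole numbers, with 1 as the lowest value stored, so 0 reads and 1 read cannot be told apart. They also deposited log2 RPM per group and p-values as false discovery rates, and a log2 fold change and false discovery rate per gene between PCM1 fractions, per the file headers. Per the submitters' processing notes, edgeR, R 2.15.1, Bowtie and SAMtools were used, with no role stated; the build, the counting rule and the use of strand are not stated there or in the labels. In the exercise table, 2 unnamed rows equal to the column totals (difference 0%) were left out. The 43 samples without counts, and the chromatin files, whose bins could not be tied to these genes, were not used here.

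Counts were tested with edgeR 4.0.16 in R 4.3.3 (quasi-likelihood F test after TMM scaling, genes kept by filterByExpr at a count of 10 and a total of 15, adjusted by Benjamini and Hochberg's method over all genes tested, threshold 0.05). Each experiment was fitted alone, and all 4 groups in 1 fit for the difference of effects, for sham against control and for the spread. DESeq2 1.42.0 and limma 3.58.1 (voom) were alternatives, beside the scaling, the filter, the stored minimum, the sham libraries, the replicate number as a block and each replicate left out. CPM are counts scaled to the total of all genes in a library. Correlations used log2 CPM with TMM factors and a prior count of 2, and two-sided permutation p-values from 100000 resamples (all orders with fewer than 10 samples; within groups for deviations from group means) in Python 3.11.15 with scipy 1.17.1. The fits were tested on simulated data. Replicate numbers were not taken to pair samples.

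The text names the 8 genes and, for Arntl and Dbp, the 2 genes with the highest and the 2 with the lowest r. The members, lists and motifs were chosen with earlier results of these data known. None of the gene IDs could be matched to the reference gene table, which holds 0 Ensembl IDs, so further clock genes and cell type markers listed by name were not tested; the share of counts from genes over 8-fold apart between PCM1 fractions, in the direction read here as PCM1-negative, stood in for markers. Promoters came from RefSeq, build GRCr8; Cry1 was named only. Figures were drawn with matplotlib 3.10.9.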

Additional observations from a re-analysis of the deposited data

Results flagged for a closer look

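In 3 of the 24 sets of 4 replicates of a clock gene, 1 sample lay far from the other 3, by a gap that was 0.832 to 0.913 of the set's whole range and above Dixon's 95% critical value for 4 samples. Chance alone gives such a gap in about 1 of 20 sets. Arntl stood at 45.7 CPM in trained 3, the highest of the trained rats. Dbp stood at 397 CPM in banded 3, the highest of all samples, where Arntl had 13.2 CPM, the highest of the banded rats, and Nr1d1 148 CPM, the highest of all samples. Cry1 stood at 23.6 CPM in control 2, the lowest of the control rats, where Per1 was also the lowest of its group at 110.3 CPM. Sets of 3 samples were not examined in this way, which leaves out sham 4, at 103.9 CPM for Arntl.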

How the results depend on the processing

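None of the 8 clock genes passed the threshold under any alternative run in the 4 comparisons; the lowest adjusted p was 0.0620, for Nr1d1 in sham against control rats without both sham 2 and 3. The sign of a clock gene's log2 fold change turned in 11 of 136 values for banded against sham, 10 of 112 for trained against control, 7 of 192 for the difference of effects and 11 of 192 for sham against control rats. Over all genes, banded against sham rats gave 1 call, 2 with DESeq2, 0 with limma voom, 0 without both sham 2 and 3 (an alternative chosen after seeing the data) and 0 to 1 with each replicate left out in turn. Trained against control rats gave 0 calls, 37 with DESeq2 and 0 to 1 with replicates left out. The difference of effects gave 1 call, 4 with DESeq2, 0 with limma voom, 0 with 1 subtracted from every count, 0 without both sham 2 and 3, and 0 to 1 with replicates left out. Sham against control rats gave 119 calls, 483 with DESeq2, 192 with sham 2 and 3 kept apart, 613 without both, and 30 to 201 with replicates left out. With a block for the replicate number and, where sham was in the fit, sham 2 and 3 kept apart at the same time, these counts were 1, 0, 0 and 425, and the log2 fold change of Arntl in banded against sham rats was -0.61, beside -1.80 with sham 2 and 3 kept apart alone; same-numbered samples did not deviate together in all pairs (r of 0.77, 0.52, 0.16 and 0.09 for banded and sham, and -0.02, 0.06, 0.14 and 0.06 for trained and control), so the block is given here only. The r of Arntl with Dbp was -0.56 in the surgery samples alone, and -0.75 to -0.57 with replicates left out. The r of Arntl with Nr1d1 was 0.61 in the surgery and -0.75 in the exercise samples alone, and -0.52 to 0.22 with replicates left out. The cause of these differences was not tested. Groups held 3 or 4 samples, and Arntl had 23 to 1321 counts in the 15 samples tested.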
